A study of Caenorhabditis elegans with 15 samples.

Results

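Pseudogenes and noncoding genes of Caenorhabditis elegans whose RNA carried a tagged spliced leader are described here across tissues, stages and ages. They are the genes of the deposited gene count table with a type other than protein coding and at least 20 reads summed over the 15 libraries, without the noncoding gene tts-1. The rule left 287 of 14831 genes, out of 1127 genes of such types in the table. They were 181 pseudogenes, 43 ncRNAs, 27 long intergenic noncoding RNAs (lincRNAs), 21 piRNA loci, 10 antisense RNAs, 3 snoRNA loci, the miRNA gene let-7 and 1 tRNA gene. Summed reads chose these genes, so their totals are a description, and a sum over libraries favours genes read in the deeper ones. Just inside the limit, with 20 reads each, stood the pseudogenes R07C12.2, R07C12.4 and fbxb-4, and just outside, with 19 reads each, the piRNA locus 21ur-7198, the snoRNA gene F20D12.10 and the ncRNA gene F48C11.7.

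All worms were transgenic for a spliced leader RNA with a tag, and tagged RNA was captured on a biotinylated probe against the tag, reverse transcribed from its poly(A) tail, amplified by nested PCR and sequenced. Under the muscle promoter myo-3 the tagged SL1 leader (strain Pmyo-3::tag:SL1(G16C)) was sampled in L1 larvae (1 library), L2 larvae (1), dauer larvae (2), young adults (2) and adults of day 12 (2), and under the pan-neuronal promoter rgef-1 (Prgef-1::tag:SL1(G16C)) in young adults (2) and day 12 adults (2). A tagged SL2 leader from the muscle promoter (Pmyo-3::tag:SL2(T5A)) gave 1 mixed-stage library, and tagged SL1 from the U2-3 promoter (PU2-3::tag:SL1(G16C)) in multiple tissues of mixed-stage worms gave the 2 libraries that serve as the reference. All worms were kept at 20°C. L2 larvae were taken about 12 h after feeding, day 12 worms were aged on 400 μM fluorodeoxyuridine while young adults count as day 1, and dauers came from liquid culture and recovered overnight in salt, so age goes with the drug and the dauer stage with its purification. The labels number the replicates and do not say what was separate between them, so p-values measure only the spread between these libraries, which may be technical. The substitutions in brackets are as in the strain names.

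Trans-splicing joins a short leader exon, cut from an SL RNA, to an acceptor site near the 5′ end of a pre-mRNA. In nematodes SL1 is the usual leader of first or lone genes, and SL2 mainly marks downstream genes within operons. A pseudogene is a copy of a protein-coding gene that has lost its reading frame. LincRNAs and antisense RNAs are long transcripts without an evident frame, piRNAs are 21-base guides of the Argonaute protein PRG-1 in the germline, and let-7 makes a microRNA that times the passage to the adult. Since leaders are added to RNA polymerase II transcripts and the libraries were primed on poly(A), a read at a piRNA, snoRNA or tRNA locus reports a longer tagged transcript with its acceptor there, not the small RNA. Each read counts a leader junction, so a level is not scaled by gene length. In bulk RNA, fewer cells of a type and less RNA per cell cannot be told apart.

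Reads on genes per library were 464359 to 9587967 for muscle with the SL1 tag, 253647 and 282171 in neurons of young adults, 57104 and 112074 in neurons at day 12, 2520944 with the SL2 tag and 2196322 and 3636542 in multiple tissues. The 14 body-wall muscle markers in the table summed to 7288 to 35079 reads per 1000000 gene reads (RPM) in the SL1 muscle libraries, 56.7 to 455 in neurons and 46.9 to 54.7 in multiple tissues. The 13 neuron markers summed to 4738 to 5688 in neurons, 553 to 3576 in SL1 muscle and 370 to 395 in multiple tissues. By gene they were uneven. Of 10 tested, 1 was called higher than in multiple tissues in young adult neurons (rab-3, background 7.8% of all genes) and 2 in day 12 neurons (rab-3 and unc-64, 6.9%). In muscle 3 were called higher in young adults (rab-3, unc-64 and snb-1, 3.93%) and 1 in larvae (rab-3, 3.53%). Both rab-3 and unc-64 were called higher in dauer (5.14%) and in day 12 muscle (4.88%). Against young adult neurons, where it had no reads, unc-64 was called higher in young adult muscle (log2 difference 11.88 ± 1.85, edgeR, adjusted p = 0.00351). Of 12 muscle markers tested 10 were called higher than in multiple tissues in young adult muscle (background 3.93%), and 3 (pfn-3, tni-3 and lev-11) in day 12 neurons (6.9%). In young adult neurons 1 was called higher (lev-11, 7.8%) and 1 lower (mlc-2, 9.21%). The 11 germline markers summed to 0 to 161 in neurons, 2.75 to 684 in SL1 muscle and 7454 to 7499 in multiple tissues, and 5 intestine markers to 14.2 to 140 in neurons, 0 to 123 in SL1 muscle and 380 to 413 in multiple tissues. The part of these differences in the results was not tested. The muscle marker unc-54 and the neuron marker rgef-1 were not analysed here.

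The 287 genes held 425806 reads, 1.49% of all gene reads, and 84.5% of these fell on pseudogenes. Reads were concentrated. The pseudogene F54D7.7 alone held 44.8% of them, the 15 most-read genes held 72.0%, and 140 genes had fewer than 100 reads. A gene had reads in a median of 5 libraries, 55 genes were read in at least 10, and 14 in only 1. No reads in multiple tissues were found for 130 genes, and 99 of these 130 had reads in neurons. The current annotation (Ensembl release 115, genome WBcel235) goes against the label of 6 pseudogenes, which it lists as protein coding: F54D7.7 (190732 reads, now rpl-41.2), F54D7.6 (33053, now rpl-41.1), F23H12.10 (16466), F45H11.8 (7264), C29E4.9 (1113) and C38D4.10 (271). These 6 held 248899 reads, 58.5% of the total. W03G1.11, a pseudogene in the deposited table, is listed as ncRNA, and the other 280 keep their type.

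Leader acceptors lay upstream of the annotated gene start more often than in coding genes, a comparison given without a test. The 287 genes had 403 trans-splice acceptor sites, and 205 of them (71.4%) had 1 site, against 61.7% of 8574 protein-coding genes with at least 20 reads. The main site lay within 10 bases of the annotated gene start in 106 genes (36.9%), against 72.0% of coding genes. It lay upstream of the annotated start, by any distance, in 150 genes (52.3%), against 7.01%. A site upstream by 10 bases or fewer counts in both measures. Both also depend on where the annotation sets the start, and how it does so for each type was not compared. The median offset, negative if upstream, was -2 bases over the 287 genes, -3 in pseudogenes, -20 in piRNA loci and 0 in coding genes. The authors list reads of the other strand as a class of their own, which the gene counts do not hold. Of the 21 piRNA loci, all on chromosome IV, 17 had the main site upstream of the 21-base element. Within the span of a coding gene on the same strand, introns included, lay the main sites of 19 genes. Main sites of 15 genes fell in an exon of another gene, 12 of them coding. In both cases the reads could belong to either gene. Examples are 21ur-14949 in hsp-12.6, which encodes a small heat shock protein, 21ur-14318 in the F-box gene fbxa-83, and 21ur-3987 in T23G4.2.

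**Figure D1:**
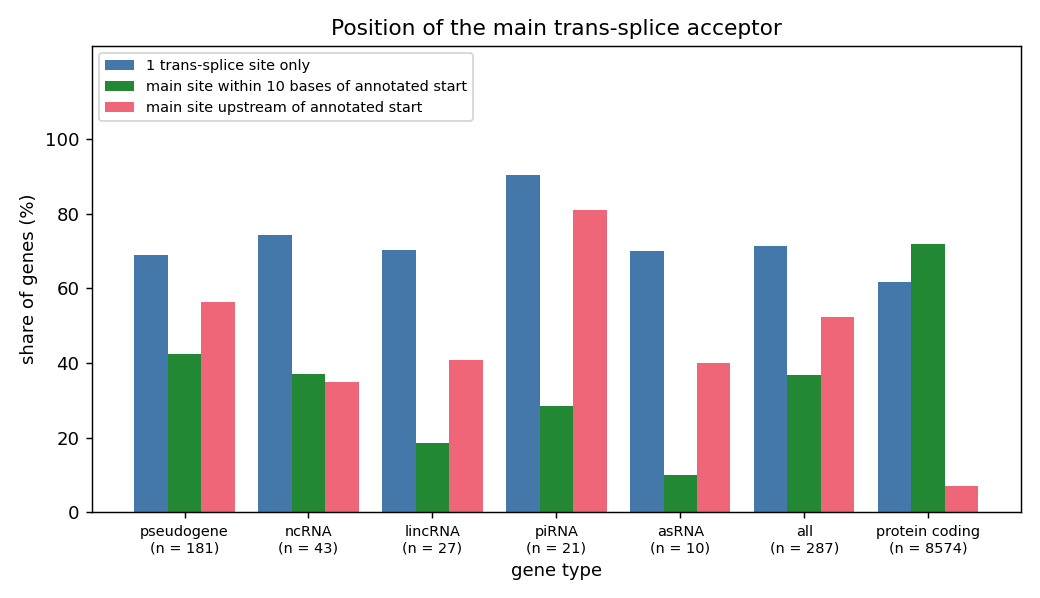
Share of genes (%) whose reads came from 1 trans-splice site, whose main site lay within 10 bases of the annotated start, and whose main site lay upstream of it. Drawn are pseudogenes, ncRNAs, lincRNAs, piRNA loci, antisense RNAs, all 287 genes and protein-coding genes. Over all 287 genes the last 2 measures were 36.9% and 52.3%, against 72.0% and 7.01% of protein-coding genes. They overlap, since a site upstream by 10 bases or fewer counts in both. The sets were not matched for reads per gene.

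Neurons gave these genes the largest share of reads. It was 3.41% and 2.59% in young adult neurons, 3.25% and 4.07% in day 12 neurons, 1.33% in L1 muscle, 1.53% in L2 muscle, 1.85% and 1.46% in dauer muscle, 1.34% and 1.61% in young adult muscle, 2.38% and 2.32% in day 12 muscle, 0.168% in the SL2 library, and 1.38% and 1.50% in multiple tissues. All 4 neuron libraries lay above all 11 others. Without the 6 genes now listed as coding the order among muscle stages became clearer. The share was then 3.33% and 2.51% in young adult neurons, 3.11% and 3.76% in day 12 neurons, 0.590% in L1, 0.634% in L2, 1.00% and 0.759% in dauer, 0.300% and 0.348% in young adult muscle, 1.14% and 0.941% in day 12 muscle, and 0.222% and 0.217% in multiple tissues. Dauer and day 12 muscle overlapped, both lay above the L1, L2 and young adult muscle libraries, and the neuron libraries again lay above every other. Because summed reads chose these genes, the shares are a description and no test is given.

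The types differed in their share by tissue, a description without a test. LincRNAs made up 0.825% to 1.16% of reads in neurons, 0.0257% to 0.157% in SL1 muscle and 0.0216% to 0.0218% in multiple tissues. A pair of genes carried the neuronal value, since linc-113 and linc-30 held 79.1% to 88.7% of lincRNA reads in the neuron libraries. Without these 2 the share was 0.124% to 0.193% in neurons and 0.0243% to 0.155% in SL1 muscle, which overlap, and 17 of the 27 lincRNAs had their highest group mean in SL1 muscle. The 43 ncRNAs made up 0.505% to 0.863% in neurons, 0.0495% to 0.230% in SL1 muscle and 0.0116% to 0.0128% in multiple tissues. Without K07C10.3 they made up 0.156% to 0.366% in neurons and 0.0491% to 0.218% in SL1 muscle, again overlapping, and 26 of the 43 were highest in SL1 muscle. Counts of the highest group favour SL1 muscle, which has more groups than neurons or multiple tissues. The share over all genes was not counted. Antisense RNAs made up 0.149% to 0.237% in neurons, against at most 0.0425% in SL1 muscle and 0.00173% in multiple tissues, and 9 of the 10 were highest in neurons. Without anr-20 their share was 0.0415% to 0.0901% in neurons and at most 0.0146% in SL1 muscle. The other 175 pseudogenes, without the 6 now listed as coding, made up 0.797% to 1.45% in neurons, 0.555% to 0.781% in dauer muscle, 0.453% to 0.714% in day 12 muscle, 0.155% to 0.182% in young adult muscle and 0.165% to 0.172% in multiple tissues.

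**Figure D2:**
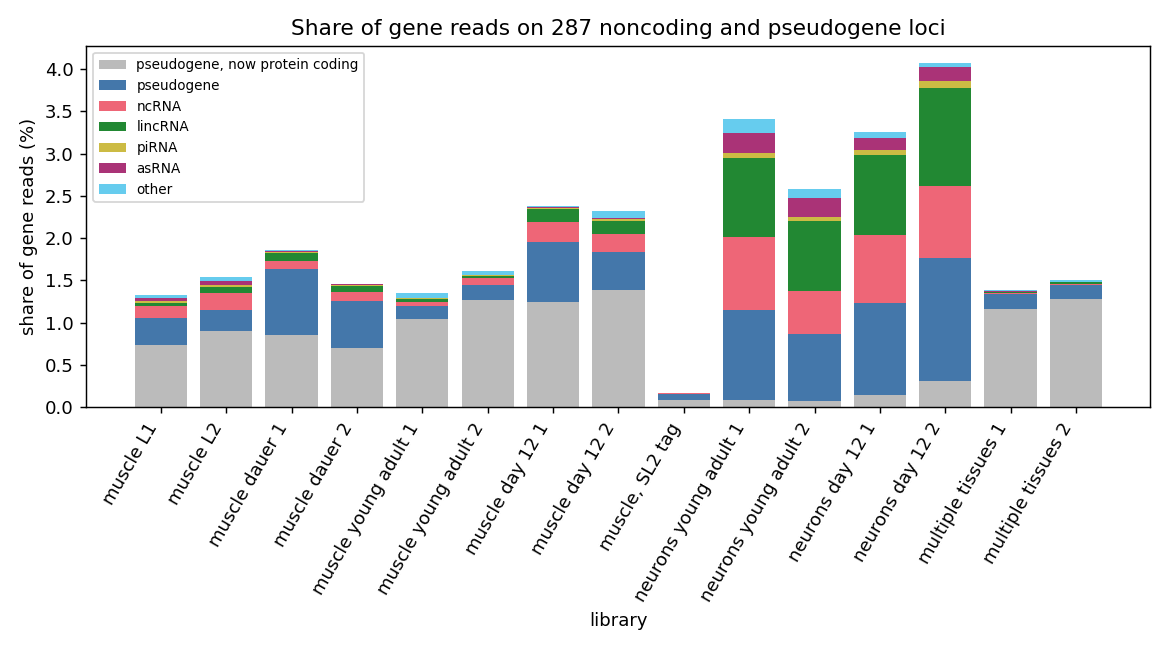
Share of gene reads (%) on the 287 genes in each library, stacked by type, with the 6 pseudogenes now listed as protein coding in grey. The grey part is 0.702% to 1.38% in the SL1 muscle libraries, 0.0712% to 0.312% in neurons and 1.16% to 1.28% in multiple tissues, and the neuron bars consist mostly of the other types.

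Differences between groups were tested in 1 edgeR fit over 8954 genes, which held 279 of the 287. Values are counts per 1000000 scaled reads (CPM, scaled by TMM), log2 differences are ± SE, and a call is an adjusted p under 0.05. Means are ± SD over 2 libraries, which in larval muscle are 1 of L1 and 1 of L2 and not replicates. As these 2 stages had 1 library each, larval p-values rest on the spread within the other groups. Where a group had no reads, the fold is a lower bound from 3 counts over the group, followed by the smallest bound when any 1 library of the comparison is left out. In all, 63 of the 279 were called in at least 1 of 11 comparisons, against 25.9% of all genes tested, in 175 pairs of gene and comparison. Most of these pairs did not hold in every fit that left out 1 library of the groups compared. How many calls over all genes held in the same way was not counted. Whether the calls of these genes are more or less stable than those of other genes is therefore not known. Comparisons with multiple tissues share that reference. The rule on summed reads can admit a gene through the group where it is high. Shares called, set beside those of all genes, are therefore a description.

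Young adult neurons against multiple tissues asked which genes the neuronal tag marks. Of the 279 genes 44 were called (15.8%, against 17% of all genes tested), 34 higher (12.2%, against 7.8%) and 10 lower (3.58%, against 9.21%). The median log2 difference was 0 over the 279 and -2.05 over all genes. The 34 higher genes were 18 pseudogenes, 5 lincRNAs, 5 ncRNAs, 3 piRNA loci, 2 antisense RNAs and 1 snoRNA locus, and 28 of them had no reads in multiple tissues. By DESeq2's size factors, which move the median of all genes by 0.90 here, 39 were higher and 5 lower, 15.8% of the 279 in all against 15.1% of all genes. In the fits that left out 1 library 22 to 25 were called, 22 of them without multiple-tissue replicate 2.

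K07C10.3, an ncRNA gene on chromosome II (11166676 to 11167704, plus strand), had the highest level of the 287 in young adult neurons and, after linc-113, the next highest in day 12 neurons. Its reads numbered 1685 and 984 in young adult neurons, 249 and 673 in day 12 neurons, 30 in L1, 122 in L2, 9 and 57 in dauer, 4 and 8 in young adult muscle, 59 and 115 in day 12 muscle, and 0 in both multiple-tissue libraries. That is 4836 ± 1807 CPM in young adult neurons, at least 6859-fold (2635-fold without multiple-tissue replicate 2) above multiple tissues (edgeR, adjusted p = 3.72e-05), and 3484 ± 1119 CPM in day 12 neurons, at least 4941-fold (1898-fold) above (adjusted p = 5.98e-05). The neuron libraries did not overlap with any other. Its main acceptor, at position 11167538, carried 3983 of its 3995 reads, and 8 bases further on, at 11167546, the authors list a cis-splice site with 24637 reads, which the gene count leaves out. Those cis reads numbered 12189 and 4774 in young adult neurons, 1410 and 3208 in day 12 neurons, 44 to 1412 in SL1 muscle, 28 in the SL2 library and 0 in multiple tissues. They were most numerous in young adult neurons, as were the counted reads. Day 12 muscle replicate 2 (1412) and day 12 neuron replicate 1 (1410) had about equal raw numbers. Their libraries held 1684401 and 57104 gene reads, so relative to depth the cis reads were far more frequent in the neuron library.

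2 genes at the same place on chromosome II were also read mostly in neurons. The snoRNA locus K07C10.2 (11167217 to 11167303) lies inside its span and had 250 and 210 reads in young adult neurons, 32 and 37 in day 12 neurons, 13 in L1, 1 in dauer replicate 1, 85 in day 12 muscle replicate 2 and 0 in the 8 other libraries. It reached 833.2 ± 104.4 CPM in young adult neurons, at least 1182-fold (454-fold without multiple-tissue replicate 2) above multiple tissues (edgeR, adjusted p = 0.0128). The antisense RNA anr-35, downstream of it (11170721 to 11176247), had 53 and 38 reads in young adult neurons, 26 and 66 in day 12 neurons, 2 in L2 and 0 elsewhere. It was at least 234-fold (89.8-fold) above multiple tissues in young adult neurons (164.9 ± 38.8 CPM, edgeR, adjusted p = 0.00761). Overlapping genes cannot be fully told apart by counts, although each had an acceptor of its own.

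Of the 27 lincRNAs, all tested, 5 were called higher in young adult neurons (18.5%, against 7.8% of all genes), namely linc-113, linc-30, linc-35, linc-84 and linc-7. For linc-113 (chromosome I, 8503994 to 8505566) 1155 and 1136 reads were found in young adult neurons, 369 and 1033 in day 12 neurons, 27 in day 12 muscle replicate 2 and none in the 10 other libraries. Its level was 4149 ± 58.3 CPM in young adult neurons, at least 5885-fold (2260-fold) above multiple tissues (edgeR, adjusted p = 0.00211). linc-30 had 703 and 780 reads in young adult neurons and 96 and 119 in day 12 neurons, but also 494 in day 12 muscle replicate 2 and 12 in replicate 1, and it was at least 3809-fold (1463-fold) above multiple tissues in young adult neurons (2686 ± 191 CPM, adjusted p = 0.00981). linc-35 (207 and 138 reads in young adult neurons, 8 and 34 in day 12 neurons) and linc-84 (52 and 65, 7 and 5) were also read in muscle larvae, with 238 and 187 reads in L2, and rose in young adult neurons by at least 887-fold (341-fold) and 300.5-fold (115-fold). The call of linc-7 (131 and 96 reads in young adult neurons, at least 583-fold, 224-fold) was lost without either young adult neuron library, with an adjusted p of up to 0.0598.

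Antisense and other noncoding RNAs followed. anr-20, an antisense RNA on chromosome I, had 483 and 498 reads in young adult neurons, 40 and 87 in day 12 neurons, 226 in L1, 674 in L2, 54 and 599 in dauer, 13 and 22 in young adult muscle, 0 and 111 in day 12 muscle, and 0 in multiple tissues. Its level of 1777 ± 34.3 CPM in young adult neurons was at least 2520-fold (968-fold) above multiple tissues (edgeR, adjusted p = 0.00348), and every SL1 muscle library but day 12 replicate 1 carried it too. An ncRNA gene on chromosome IV (14764060 to 14764305, plus strand) was read in all neuron and SL1 muscle libraries, with 101 and 65 reads in young adult neurons, 37 and 55 in day 12 neurons, 18 to 1263 in SL1 muscle and 0 and 2 in multiple tissues, a log2 difference of 9.20 ± 1.26 in young adult neurons (adjusted p = 0.00112).

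Of 10 chemoreceptor pseudogenes, all tested, 3 were called higher in young adult neurons (background 7.8% of all genes), and none of these 3 calls held when 1 library was left out. The 10 genes, by symbol copies of the seven-transmembrane receptors with which neurons sense odours and tastes, had 171 and 178 reads in young adult neurons, 125 and 130 in day 12 neurons, 79 in L1, 72 in L2, 7 and 0 in dauer, 0 and 15 in young adult muscle, 16 and 183 in day 12 muscle, and 0 in multiple tissues. That is 631 to 2189 RPM in neurons, 0 to 111 in SL1 muscle and 0 in multiple tissues. The highest group mean lay in neurons for 7 of the 10 and in SL1 muscle for 3 (srw-80, without neuron reads, srh-64 and srw-74). Called in young adult neurons were srx-138 (90 and 69 reads), srx-132 (32 and 49) and srw-28 (22 and 10), at least 408.5-fold (157-fold), 208-fold (79.9-fold) and 82.2-fold (31.6-fold) above multiple tissues. None of these 3 had a read in muscle, and each call was lost without any 1 of the 4 libraries (largest adjusted p 0.0731, 0.141 and 0.167). srx-138 had 0 and 1 reads in day 12 neurons, while srx-11 had 85 and 53 there against 8 and 10 in young adult neurons.

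The pseudogene msp-52, by name a copy of the major sperm protein genes, had 754 and 863 reads in young adult neurons, 40 and 279 in day 12 neurons, 0 in L1, 246 in L2, 23 and 0 in dauer, 14 and 95 in young adult muscle, 6 and 193 in day 12 muscle, 708 in the SL2 library and 0 in multiple tissues. It reached 2928 ± 272 CPM in young adult neurons, at least 4153-fold (1595-fold) above multiple tissues (edgeR, adjusted p = 0.0118). C33D9.5, a pseudogene on chromosome IV, had 669 and 424 reads in young adult neurons, 68 and 130 in day 12 neurons, 49 in L1, at most 8 in any other muscle library and 0 in multiple tissues, and it was at least 2809-fold (1079-fold) above multiple tissues (1980 ± 632 CPM, adjusted p = 0.00709). The msp copies are a multigene family, so how reads were split between near-identical genes is uncertain.

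Of the 21 piRNA loci 3 were called higher in young adult neurons (14.3%, against 7.8% of all genes). These were 21ur-4377 (21 and 36 reads), 21ur-3987 (42 and 17) and 21ur-8251 (49 and 36), at least 146-fold (56.2-fold), 152-fold (58.3-fold) and 218-fold (83.9-fold) above multiple tissues, where they had no reads. Their calls were lost without either multiple-tissue library and without young adult neuron replicate 2 (largest adjusted p 0.0998, 0.174 and 0.136), and those of 21ur-3987 and 21ur-8251 also without replicate 1. piRNAs are made in the germline, and the 21 loci together had 164 and 148 reads in young adult neurons, 35 and 101 in day 12 neurons, 56 to 955 in SL1 muscle and 2 and 7 in multiple tissues, the libraries richest in germline markers. The main site of 21ur-3987 lies in an exon of T23G4.2 and that of 21ur-4377 in another piRNA locus, 21ur-12355. That of 21ur-8251 lies 1 base upstream of the coding gene str-166 on the same strand, to which 1 read was assigned in all. Reads at these sites could belong to either gene.

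**Figure D3:**
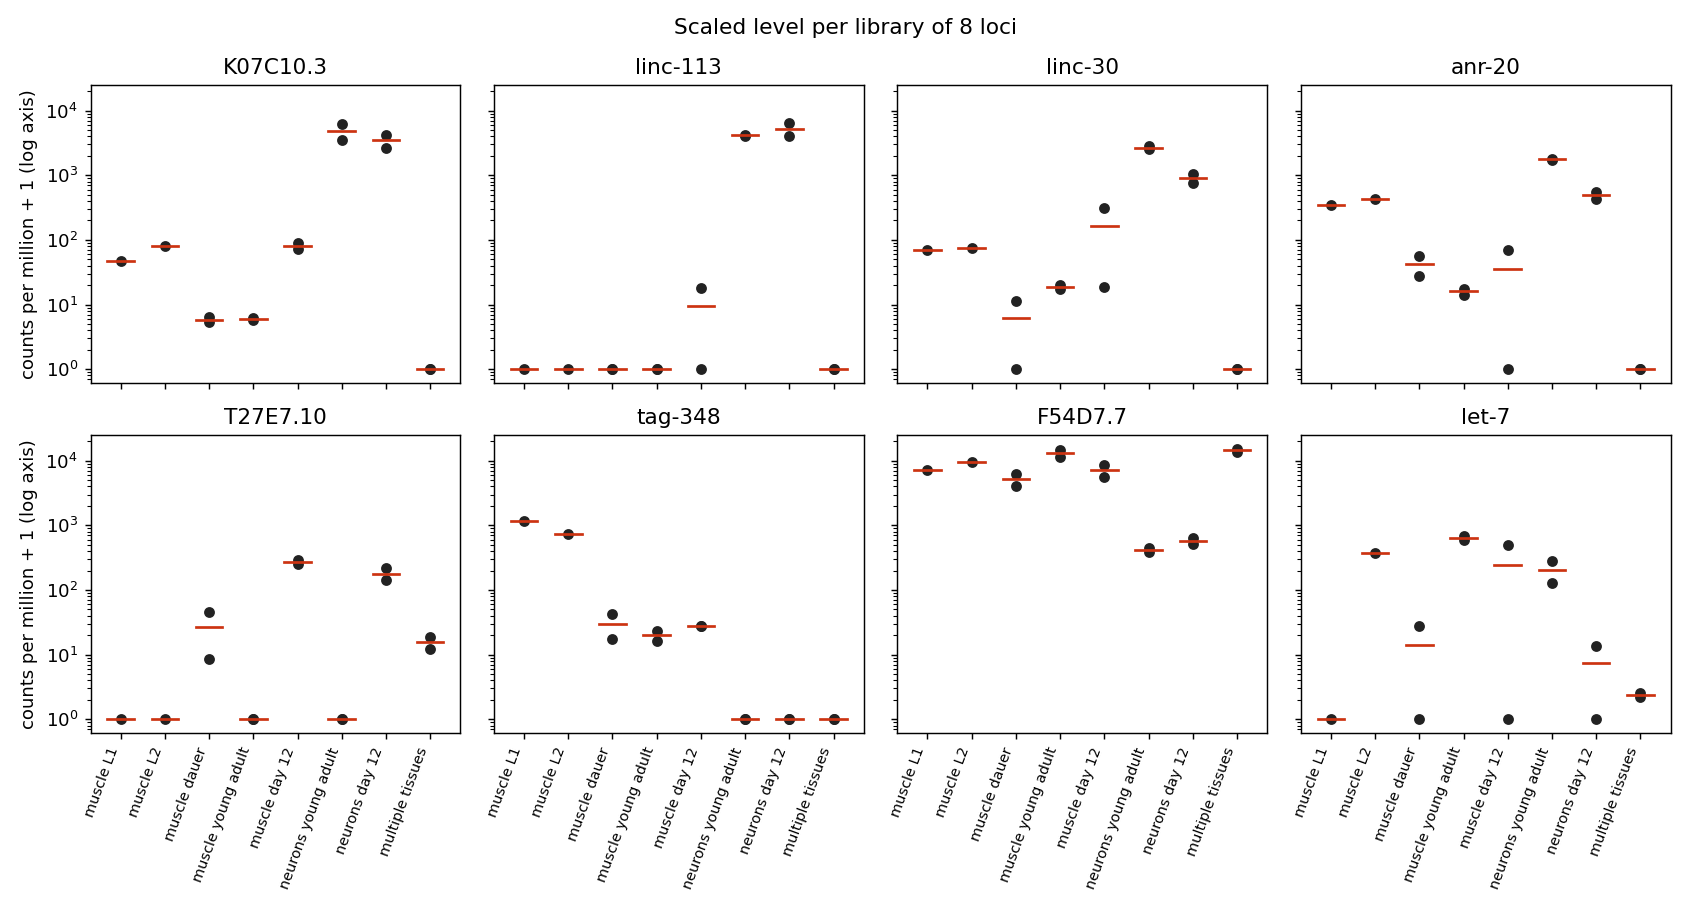
Scaled level (CPM + 1, log axis) of 8 genes in each SL1-tag library, with points for libraries and a red line for the group mean. K07C10.3, linc-113, linc-30 and anr-20 peak in neurons, T27E7.10 in day 12 muscle and tag-348 in larval muscle, while F54D7.7 is lowest in neurons.

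Lower in neurons were first of all both copies of the ribosomal protein gene rpl-41. F54D7.7 had 105 and 122 reads in young adult neurons, 47 and 100 in day 12 neurons, 3790 to 44114 in SL1 muscle and 22112 and 40506 in multiple tissues, so every neuron library lay below every other SL1 library in scaled level too. Its level of 411.1 ± 42.6 CPM in young adult neurons and 571.7 ± 89.8 in day 12 neurons compares with 14493 ± 1363 in multiple tissues, log2 differences of -5.14 ± 0.37 (edgeR, adjusted p = 4.05e-05) and -4.66 ± 0.36 (adjusted p = 7.56e-05). F54D7.6, the neighbouring copy, fell by 3.35 ± 0.58 on the log2 scale in young adult neurons (172 ± 7.29 CPM, against 1756 ± 160.5 in multiple tissues, adjusted p = 0.00408). Both encode nearly the same short protein of the large ribosomal subunit, so the split of reads between these copies is uncertain. Among genes of other types, the ncRNA Y108G3AL.10 had 0 reads in young adult neurons, against 123 and 256 reads in multiple tissues (at least 15.9-fold lower, 7.94-fold without young adult neuron replicate 2, adjusted p = 0.00455). Its main site lies in an exon of the coding gene Y108G3AL.2.

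Day 12 neurons against multiple tissues gave 32 called genes (11.5%, against 12.1% of all genes), 29 higher (10.4%, against 6.9%) and 3 lower (1.08%, against 5.22%), with a median log2 difference of 2.03 over the 279 and -0.62 over all genes. DESeq2's size factors, which move the median of all genes by 1.36 here, gave 50 (17.9%, against 13% of all genes). With 1 library left out 12 to 18 were called, 12 without either day 12 neuron library. Here too some genes, such as Y11D7A.1, met the read limit only through neuron libraries. Besides K07C10.3 and F54D7.7, linc-113 was at least 7483-fold (2874-fold) above multiple tissues (5276 ± 1818 CPM, edgeR, adjusted p = 0.00246) and anr-20 at least 699-fold (268-fold, 492.6 ± 84.9 CPM, adjusted p = 0.00741). The calls of C33D9.5, linc-30 and msp-52, at least 1107-fold (425-fold), 1272-fold (489-fold) and 1564-fold (601-fold) higher, were lost without either day 12 neuron library (largest adjusted p 0.0692, 0.0754 and 0.0967). Y11D7A.1, a pseudogene with 23 and 60 reads in day 12 neurons, 41 and 21 in young adult neurons and 0 in the other libraries, was at least 447-fold (172-fold) above multiple tissues, lost in the same way (0.0765).

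Young adult muscle against multiple tissues gave 9 called genes, all higher (3.23%, against 5.12% of all genes in either direction, 3.93% higher and 1.18% lower). They were 5 ncRNAs and 4 pseudogenes, and 2 held in each fit that left out 1 library. One was F07H5.4, a pseudogene on chromosome II (8786457 to 8787119), whose reads numbered 114 and 288 in young adult muscle, 151 in L1, 520 in L2, 861 and 2539 in dauer, 39 and 137 in day 12 muscle, 61 and 52 in young adult neurons, 10 and 18 in day 12 neurons, and 3 and 6 in multiple tissues. It stood at 160 ± 18.96 CPM in young adult muscle and 2.06 ± 0.321 in multiple tissues, a log2 difference of 6.22 ± 0.77 (edgeR, adjusted p = 0.00131). The other was K07C10.3, at least 7.06-fold (2.71-fold without multiple-tissue replicate 2) higher on 4 and 8 reads (adjusted p = 0.00406). The calls of C04C11.23, fbxa-33 and T20G5.17 were lost without either multiple-tissue library (largest adjusted p 0.0595, 0.111 and 0.124). C04C11.23, an ncRNA gene that overlaps linc-5 on chromosome X, had 188 and 606 reads in young adult muscle and 15 and 23 in multiple tissues (log2 difference 5.07 ± 0.83). The other 4 calls, tag-348, Y116A8C.48, the ncRNA gene at 14764060 on chromosome IV and fbxa-34, were lost without any 1 of the 4 libraries (adjusted p up to 0.0942, 0.204, 0.153 and 0.18).

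In larval muscle (the mean of L1 and L2, 1 library each) 19 genes were called against multiple tissues (6.81%, against 7.01% of all genes), 11 higher (background 3.53%) and 8 lower (background 3.48%). Of these calls 6 held in each fit that left out 1 library, namely K07C10.3, F07H5.4, tag-348, the ncRNA gene at 14764060 on chromosome IV, C04C11.23 and anr-20. tag-348 is a pseudogene on chromosome V (12236895 to 12238599). Its reads numbered 751 in L1, 1128 in L2, 34 and 446 in dauer, 12 and 37 in young adult muscle, 18 and 42 in day 12 muscle and 0 in all neuron and multiple-tissue libraries. At 946.7 ± 317 CPM in larval muscle it was at least 1343-fold (516-fold) above multiple tissues (edgeR, adjusted p = 0.00233). Its leader was joined at several acceptors, mainly at 12236840 (1081 reads) and 12236980 (1018 reads). Dauer replicate 2 had 446 reads at the downstream one and 0 at the upstream one, while L1 had 189 and 500. A cis site of the gene at 12237086, not part of the gene count, carried 23701 reads, of which 2954 were in L1, 16317 in L2, 76 to 1724 in each of the other SL1 muscle libraries, 98 with SL2 and 0 in neurons and multiple tissues.

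Other larval calls were noncoding RNAs. tts-2, an ncRNA, had 296 reads in L1, 721 in L2 and 21 and 12 in multiple tissues (461.7 ± 0.408 CPM, against 8.71 ± 5.85, log2 difference 5.73 ± 1.20, edgeR, adjusted p = 0.0192), a call lost without either multiple-tissue library (adjusted p up to 0.15). anr-20 stood at 392.1 ± 56.3 CPM, at least 556-fold (214-fold) above multiple tissues (adjusted p = 0.0126). All 8 lower genes were pseudogenes, and 5 of them had no read in either larval library, such as C06A1.4 (210 and 379 reads in multiple tissues, at least 100.2-fold lower, 29.2-fold without L2) and Y39C12A.2 (118 and 165 reads, at least 49.6-fold, 14.5-fold). Both calls, like those of the 3 others without larval reads (Y39B6A.49, T27E7.10 and ZK1225.7), were lost without L1 or L2, and all but that of Y39C12A.2 also without either multiple-tissue library. For F23H12.10, Y37B11A.8 and C56A3.10 the L2 library had 0 reads. Without it the log2 differences were -0.42, -1.11 and -0.69 and the calls were lost (adjusted p 0.91, 0.551 and 0.793), whereas with it they were -5.67, -4.77 and -5.14. These 3 calls were also lost without multiple-tissue replicate 2, and those of Y37B11A.8 and C56A3.10 without replicate 1.

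Dauer muscle against multiple tissues gave 17 called genes (6.09%, against 7.45% of all genes), 16 higher (background 5.14%) and 1 lower (background 2.31%). Several of the most-read pseudogenes were highest there. Dauer replicate 2 was the deepest library (9587967 gene reads), so a gene high in dauer ranks higher by summed reads. T26G10.7 (chromosome III) had 2275 and 4950 reads in dauer, 59 in L1, 2 in L2, 230 and 540 in young adult muscle, 318 and 1114 in day 12 muscle, 2 and 0 in young adult neurons, 4 and 16 in day 12 neurons and 49 and 94 in multiple tissues, a log2 difference of 4.57 ± 0.87 in dauer against multiple tissues (edgeR, adjusted p = 0.0119). Y37B11A.8 had 1714 and 4652 reads in dauer and 33 and 81 in multiple tissues (4.63 ± 0.84, adjusted p = 0.0113). T07G12.8 had 806 and 3211 reads in dauer and 45 and 53 in multiple tissues (3.86 ± 0.98, adjusted p = 0.0412), and the ncRNA C30E1.9 372 and 4087 against 6 and 6 (6.54 ± 1.35, adjusted p = 0.0163). These 4 calls were lost without either multiple-tissue library (adjusted p up to 0.10, 0.144, 0.283 and 0.137), and that of T07G12.8 also without either dauer library. In all, 3 calls held in each fit that left out 1 library: F07H5.4 (7.25 ± 0.80, adjusted p = 7.32e-04), K07C10.3 and the ncRNA gene at 14764060 on chromosome IV. The lower gene was F54D7.7 (-1.49 ± 0.32, adjusted p = 0.019), lost without either multiple-tissue library or dauer replicate 2 (adjusted p up to 0.143).

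Against young adult muscle no gene was called in dauer muscle (background 0.134% of all genes, 0.0558% higher and 0.0782% lower) by edgeR, 25 had an unadjusted p under 0.05 (8.96%, against 7.72% of all genes), and DESeq2 called 15 of the 133 to which it gave an adjusted p (11.3%, against 6.74% of all genes). T26G10.7 stood at 784.5 ± 454 CPM in dauer and 310.4 ± 20.8 in young adult muscle, and Y37B11A.8 at 634.2 ± 281 and 104.8 ± 11.8, so the dauer libraries lay above the young adult ones but also apart from each other. F23H12.10 had 1529 and 12168 reads in dauer and 60 and 151 in young adult muscle.

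Day 12 muscle against multiple tissues gave 20 called genes (7.17%, against 9.82% of all genes), 19 higher (background 4.88%) and 1 lower (background 4.94%). The 3 that held in each fit that left out 1 library were K07C10.3 (79.8 ± 11.2 CPM, at least 113.2-fold, 43.5-fold, edgeR, adjusted p = 2.46e-04), the ncRNA gene at 14764060 on chromosome IV (251.1 ± 231 CPM, log2 difference 8.94 ± 1.25, adjusted p = 0.00264) and C04C11.23 (356.7 ± 124 CPM, 5.30 ± 0.84, adjusted p = 0.00471). The F-box pseudogenes fbxa-33 and fbxa-34, neighbours on chromosome III on opposite strands, had 46 and 538 and 71 and 221 reads in day 12 muscle and 0 in multiple tissues, at least 287-fold (97-fold) and 173-fold (66.4-fold) higher, calls lost without multiple-tissue replicate 2 (adjusted p 0.051 and 0.0802) and, for fbxa-34, also without replicate 1. The lower gene was C06A1.4 with no reads in day 12 muscle, a call lost without any 1 of the 4 libraries (adjusted p up to 0.17). anr-20 was read in day 12 muscle only in replicate 2 (111 reads), and its call rests on that library.

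Age in muscle was compared directly as day 12 against young adult muscle, where 2 genes were called (0.717%, against 1.55% of all genes), both higher (background 0.603% higher and 0.949% lower). T27E7.10, a pseudogene on chromosome IV (14531180 to 14531646, minus strand), had 198 and 405 reads in day 12 muscle and 0 and 0 in young adult muscle. Its level was 273.8 ± 29.2 CPM in day 12 muscle, at least 223-fold (71-fold without young adult muscle replicate 2) above young adult muscle (edgeR, adjusted p = 0.0305). It also had 13 and 34 reads in day 12 neurons and none in young adult neurons, 92 and 82 in dauer, none in L1 and L2, and 29 and 29 in multiple tissues. K07C10.3 had 59 and 115 reads in day 12 muscle and 4 and 8 in young adult muscle (79.8 ± 11.2 CPM, against 4.98 ± 0.231), a log2 difference of 3.99 ± 0.51 (adjusted p = 0.011). Both calls were lost without either young adult muscle library (adjusted p up to 0.241 and 0.184). DESeq2 called 22 of 146 (15.1%, the same share as of all genes).

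Day 12 against young adult neurons gave no called gene by edgeR (background 0.0223%, 0.0112% in each direction), with 28 at an unadjusted p under 0.05 (10.04%, against 9.95% of all genes) and 19 of 112 called by DESeq2 (17%, against 6.83% of all genes). The age change was tested for a difference between the tissues, day 12 over young adult in muscle minus that in neurons. K07C10.3 passed (1 of 279, background 0.804%, 0.201% higher and 0.603% lower), with a difference of 4.46 ± 0.66 on the log2 scale (edgeR, adjusted p = 0.0279). It was higher in both day 12 muscle libraries than in both young adult ones, while in neurons it stood at 3484 ± 1119 CPM at day 12 and 4836 ± 1807 in young adults. The call was lost without any 1 of the 4 neuron libraries or either young adult muscle library (log2 difference 4.03 to 4.85, adjusted p up to 0.173).

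Young adult muscle against young adult neurons compared the tissues without the multiple-tissue libraries. Of the genes 31 were called (11.1%, against 13.1%), 11 higher in muscle (3.94%, against 8.67%) and 20 lower (7.17%, against 4.46%). By DESeq2's size factors, which move the median of all genes by -0.88, 8 were higher and 27 lower (12.5% in all, against 12.1% of all genes). K07C10.3 fell by 9.91 ± 0.63 on the log2 scale in muscle (4.98 ± 0.231 CPM, against 4836 ± 1807 in neurons, edgeR, adjusted p = 8.22e-05), and linc-113, with no reads in young adult muscle, was at least 3373-fold (1076-fold) lower (adjusted p = 0.00279). Higher in muscle were F54D7.7 (5.01 ± 0.37, adjusted p = 8.22e-05), F54D7.6 (3.33 ± 0.58, adjusted p = 0.00474), T26G10.7 (6.39 ± 1.07, adjusted p = 0.00381) and, without reads in young adult neurons, Y37B11A.8 (75 and 188 reads in muscle, at least 19.3-fold, 9.63-fold) and Y116A8C.48 (105 and 374 reads, at least 33.1-fold, 16.5-fold). These 7 calls and that of Y108G3AL.10 held in each fit that left out 1 library, and with 1 library left out 9 to 15 genes were called, 9 without young adult muscle replicate 2.

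**Figure D4:**
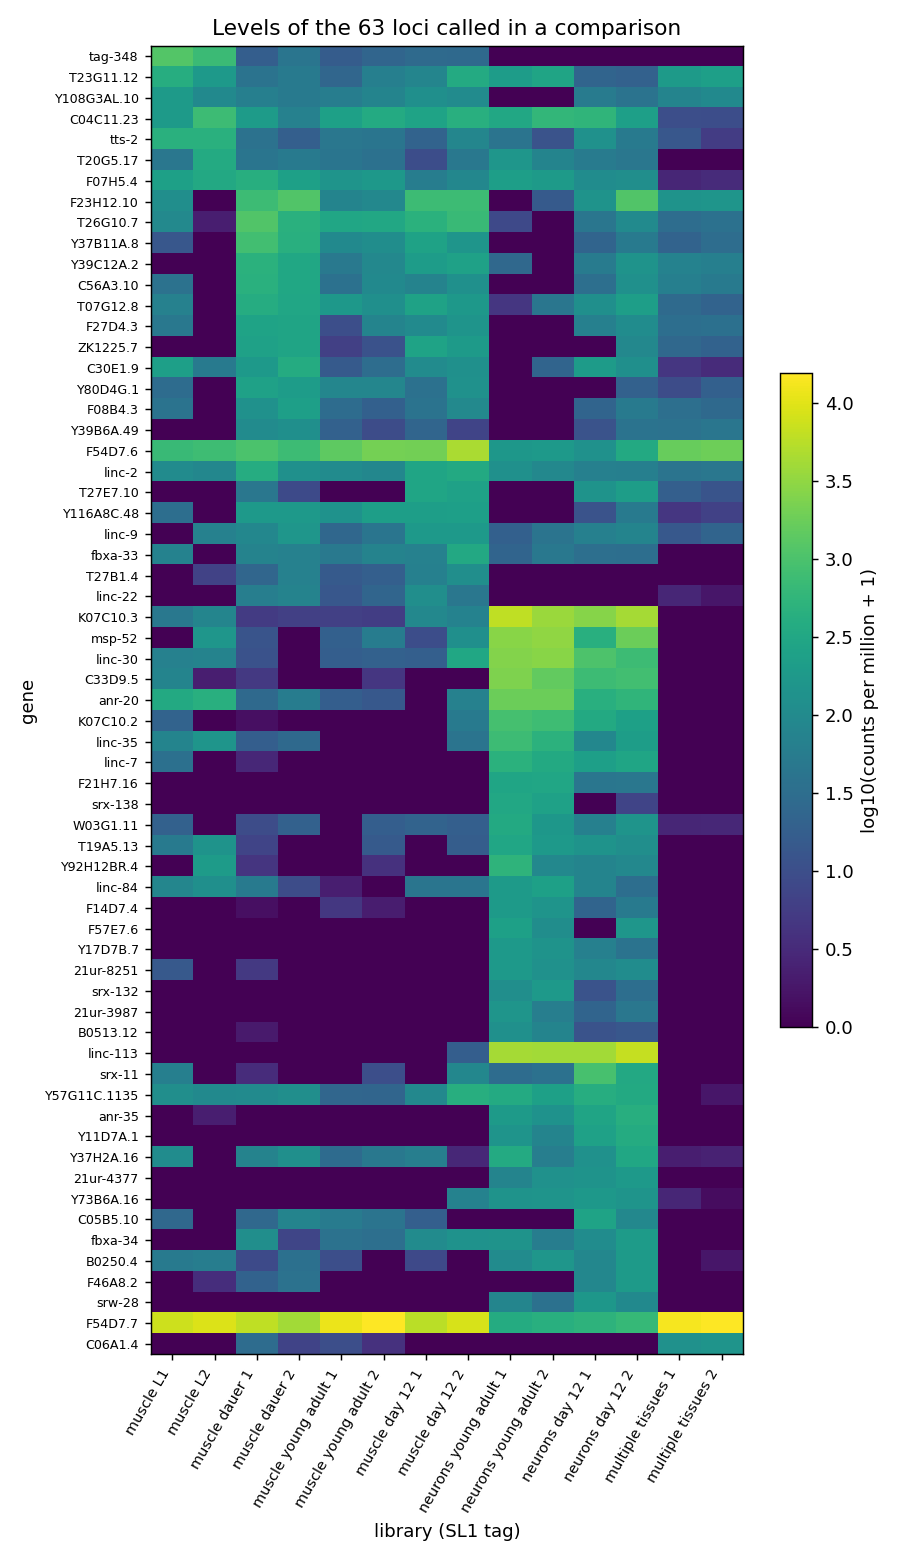
Scaled level, as log10(CPM + 1), of the 63 called genes (rows, ordered by the group of their highest mean) in the 14 SL1-tag libraries (columns). Genes from K07C10.3 down to srw-28 have their highest mean in neurons of either age and are mostly dark in multiple tissues, although C05B5.10 and F46A8.2 among them have no reads in young adult neurons, and a block from F23H12.10 to Y39B6A.49 has its highest mean in dauer muscle and is mostly dark in L2 muscle and young adult neurons.

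Summed over name families, chosen here by gene symbol, lincRNAs reached 8247 to 11591 RPM in neurons, 257 to 1572 in SL1 muscle and 216 to 218 in multiple tissues. The 7 antisense RNAs of the anr family reached 1453 to 2298 in neurons, 386 in L1 and 425 in L2, 16.1 to 129 in the other SL1 muscle libraries and at most 16.8 in multiple tissues. The 19 F-box pseudogenes, copies of substrate adaptors of ubiquitin ligases, reached 271 and 593 in dauer, 429 and 494 in day 12 muscle, 143 and 166 in young adult muscle, 188 in L1, 53.4 in L2, 170 to 499.7 in neurons and 80.6 to 104.3 in multiple tissues. All 7 MATH and BTB pseudogenes were read in both multiple-tissue libraries (100 and 200 reads) and in 4 other libraries only, dauer replicates 1 and 2 (30 and 255 reads), day 12 muscle replicate 2 (52) and day 12 neuron replicate 2 (12).

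**Figure D5:**
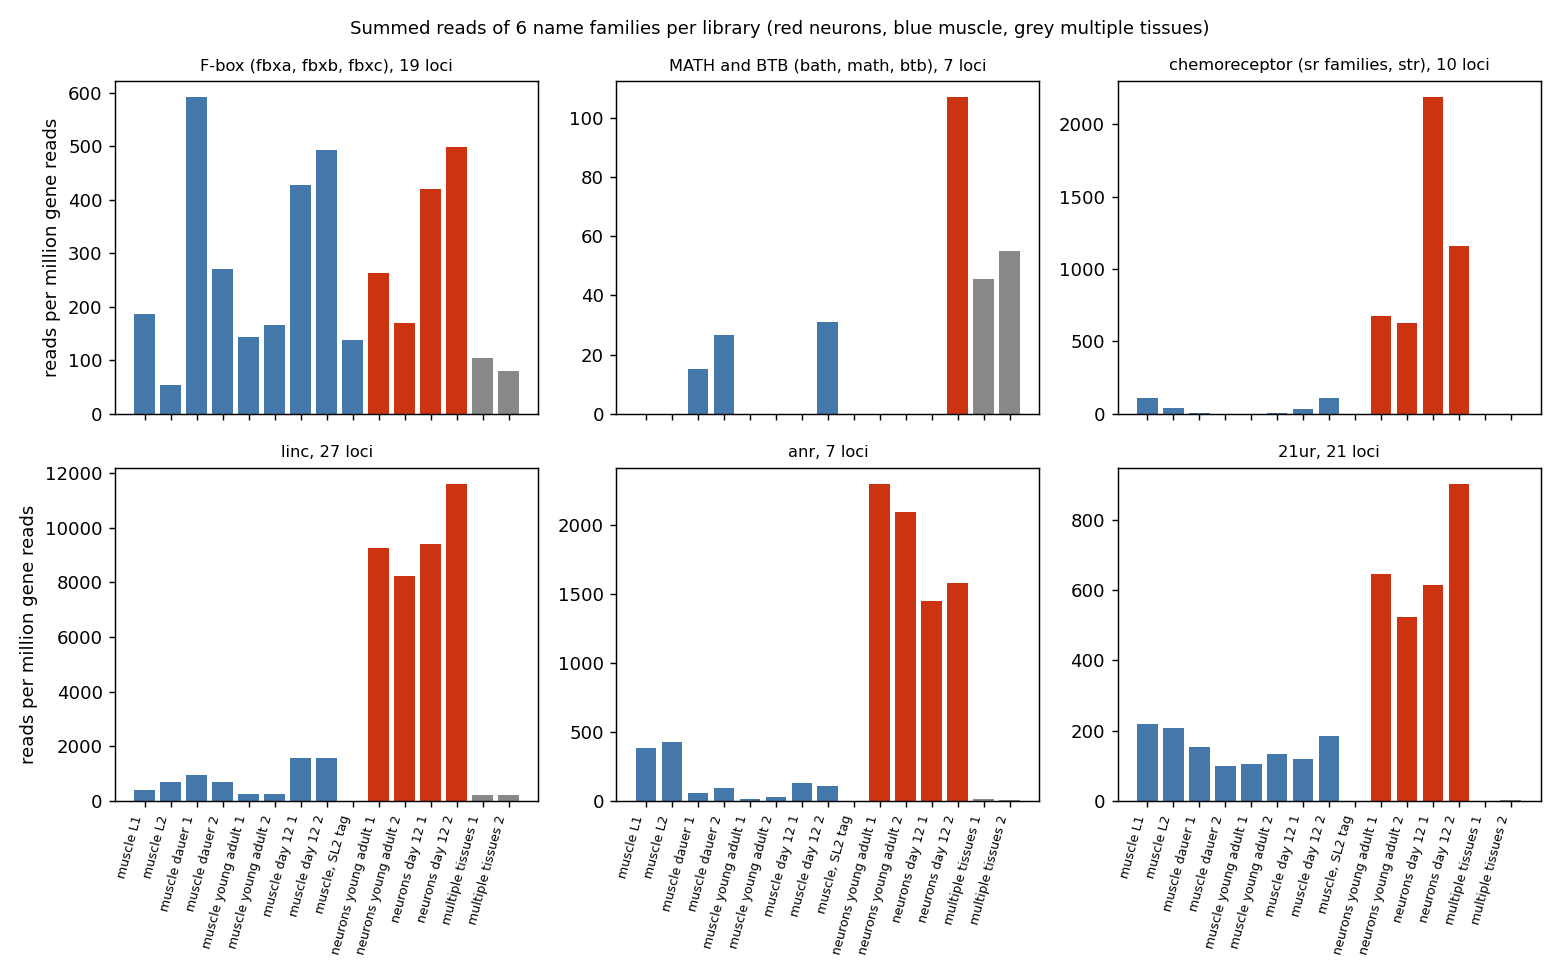
Summed RPM (reads per 1000000 gene reads) of 6 name families in each library, neurons in red, muscle in blue, multiple tissues in grey. LincRNA, anr, 21ur and chemoreceptor sums are highest in the 4 neuron libraries, while the F-box sum is highest in dauer replicate 1 (593) and the MATH and BTB sum in day 12 neuron replicate 2 (107, from 12 reads).

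let-7, the only miRNA gene among the 287, was read at 1 acceptor (chromosome X, 14744296, minus strand), 1025 bases into the annotated gene. It had no reads in L1 and 587 in L2, 54 and 0 in dauer, 531 and 982 in young adult muscle, 0 and 788 in day 12 muscle, 78 and 35 in young adult neurons, 0 and 2 in day 12 neurons, and 2 and 4 in multiple tissues. It was called in none of the comparisons. The 0 in 1 library beside 788 or 54 in its partner shows how far replicates could part for this gene.

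The SL2 tag marked 8 of the 287 genes. F45H11.8 had 1648 reads there, C25H3.18 857, msp-52 708, fbxa-191 346, ZK809.10 343, F54D7.6 294, linc-30 37 and F17C8.8 9. For fbxa-191 the SL2 library held 346 of 365 reads, and the others were 7 and 12 in multiple tissues. F54D7.7, the most-read of the genes over all libraries, had 0 reads with SL2 although the deposited table places it in an operon. A count of 0 there allows up to 3 reads.

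Some genes were read almost wholly in 1 library or group. All 365 reads of the pseudogene Y5F2A.3, all 184 of 21ur-10402 and all 178 of C18D4.8 were in dauer replicate 2, and all 130 of the ncRNA ZK973.23 in day 12 muscle replicate 2, so no replicate carried them. Multiple tissues held 90 and 147 of the 238 reads of F43D2.2, 69 and 140 of the 217 of Y43F11A.6 and 45 and 100 of the 149 of lrg-1, in both libraries alike.

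RNA decay genes were counted beside these, since nonsense-mediated decay degrades RNAs with an early stop codon and the exosome degrades many noncoding RNAs. Of the 11 decay genes (smg-1 to smg-9, smgl-1 and smgl-2) 10 were tested and none was called in any comparison (background of any call, 25.9%). Of 15 exosome and related genes 12 were tested, and 2 were called, both in young adult muscle against young adult neurons (background 13.1%) and 1 each in young adult neurons (background 17%) and larval muscle (background 7.01%) against multiple tissues. crn-5 had 871 reads in young adult muscle and 0 in young adult neurons (edgeR, adjusted p = 0.00366), and those 0 compare with 134 in multiple tissues (adjusted p = 0.0234). exos-9 had 428 reads in young adult muscle and 0 in young adult neurons (adjusted p = 0.00875), and 0 in larval muscle, against 43 in multiple tissues (adjusted p = 0.0448). The list's median log2 difference was 7.78 in young adult muscle against young adult neurons (all genes 0.56) and -6.06 in young adult neurons against multiple tissues (all genes -2.05), at the low depth of the neuron libraries. Against multiple tissues this median was -2.18 in day 12 neurons (all genes -0.62) and -2.54 in larval muscle (-1.43). In day 12, dauer and young adult muscle it was -1.64, 0.93 and 1.11 (all genes -0.29, 0 and 0). A link between the decay genes and the levels of the 287 genes was not tested.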

How the data were processed

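The authors' deposited table gives whole read counts per gene for the 15 libraries, and a second deposited table gives read counts per splice acceptor site. Per the submitters' processing notes, Trimmomatic, TopHat2 and DESeq were used, while versions, roles and the genome build remain not stated there. In 4304 of 4305 gene and library pairs of the 287 genes the gene count equals the sum at the trans sites, so cis and antisense reads are not part of it. An exon start of the WBcel235 annotation (Ensembl release 115) was met by 90.6% of the authors' cis sites, from which gene positions and current types were taken. Not used were 3 per-sample columns that match no library.

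Differences were tested with edgeR 4.0.16 in R 4.3.3 (filterByExpr, TMM, quasi-likelihood F test, 8 group means over 14 SL1-tag libraries, 6 residual degrees of freedom, Benjamini-Hochberg over 8954 genes, threshold 0.05). SE was taken as the absolute log2 difference over the root of F. Total counts per library were 57104 to 9587967, but the number of genes with reads did not follow them. It was 7945 and 4569 in dauer replicates 1 and 2, with 1974529 and 9587967 reads. In neurons it was 3913 and 4105 in young adults and 5275 and 6757 at day 12, where reads were fewer. Floors of 3 counts cover counting error only, since PCR reads carry no molecular identifiers, so the lower bounds rest on depth alone. Replicate numbers did not pair libraries (correlations of -0.037 to 0.017). Alternatives were DESeq2 1.42.0 (size factors, Wald test), no filter on low counts, at least 50 reads in 2 libraries, a replicate block, and leaving out each library. The genes, lists and tests were chosen with earlier results of these data known. Named are the 15 most-read genes, the 3 most-read of each type, genes called in a comparison, genes with at least 100 reads and at least 90% of their level in 1 group (up to 4 a group), and genes at the limit of 20 reads. Name families and genes with many cis or antisense reads were chosen after their values were seen.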

Additional observations from a re-analysis of the deposited data

Results flagged for a closer look

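The age change of K07C10.3 differed between tissues, by 4.46 on the log2 scale in muscle minus neurons. The gene had only 4 and 8 reads in young adult muscle. As given above, its call was lost in fits without a neuron library or a young adult muscle library. The SL2-tag library, which entered no comparison, held more than the 3 reads that a count of 0 allows for F54D7.6 (294), F45H11.8 (1648), C25H3.18 (857), msp-52 (708), linc-30 (37), ZK809.10 (343), fbxa-191 (346) and F17C8.8 (9).

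Acceptor sites that the gene counts leave out held more reads than the counted trans sites in several genes. At cis sites of the same strand this was so in 17 genes, and 14 of them had at least 100 cis reads, namely tag-348 (25250 reads), K07C10.3 (24637), B0391.10 (2024), fbxa-200 (1783), Y48A6C.2 (997), B0250.12 (775), Y37E11B.16 (536), drh-2 (511), C01B9.5 (481), Y73F8A.37 (381), linc-85 (377), F23A7.6 (277), F14D7.4 (208) and anr-16 (183). The others were F17C8.8 (76), puf-4 (68) and Y18D10A.27 (60). For fbxa-200 the 62 trans reads were in multiple tissues (17 and 25) and dauer replicate 1 (20), whereas its cis site had 222 reads in L2, 246 and 432 in dauer, 235 and 480 in young adult muscle, 0 and 166 in day 12 muscle, 2 in day 12 neuron replicate 2 and 0 in multiple tissues. At antisense sites these were F27B3.7 (6306), linc-85 (1212) and K05D4.5 (616). The main antisense site of F27B3.7, at 6563133 on chromosome III, plus strand, had 538 and 590 reads in young adult neurons, 171 and 396 in day 12 neurons, 22 to 2056 in SL1 muscle, 463 in the SL2 library and 0 in multiple tissues, against 50 reads in all at its trans site. At K05D4.5 492 of the 616 antisense reads were in the SL2 library.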

How the results depend on the processing

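DESeq2's Wald test called more of the genes than edgeR, 29 in young adult, 44 in day 12, 42 in dauer and 37 in larval muscle and 57 in day 12 neurons against multiple tissues, 22 for age in muscle, 19 for age in neurons, 15 in dauer against young adult muscle and 8 in the interaction, and its size factors called 50 in day 12 neurons. In the same order that was 21.3%, 27%, 27.5%, 25.3%, 41.9%, 15.1%, 17%, 11.3% and 5.48% of those given an adjusted p, against 21.9%, 27.9%, 23.5%, 25.5%, 31.7%, 15.1%, 6.83%, 6.74% and 9.32% of all genes. Without a filter on low counts the numbers in the same order were 28, 34, 35, 32, 58, 16, 7, 6 and 8 of 287 (background 8.12%, 12.7%, 9.96%, 10.9%, 14.6%, 4.85%, 1.18%, 1.27% and 2.87%), with 67 in young adult neurons against multiple tissues (background 18.3%) and 50 in young adult muscle against young adult neurons (13.4%). With at least 50 reads in 2 libraries, which left fewer genes to test, they were 15 in young adult (14.4% of those tested, background 12.6%), 32 in day 12 (30.8%, background 24.6%) and 30 in dauer muscle (28.8%, background 19.7%) and 2 in the interaction (1.92%, background 2.6%). With a replicate block they were 14 in young adult muscle (background 6.69%) and 1 for age in neurons (0.369%), and this block moved no other count by over 1.5 times. Leaving out 1 library gave 2 to 5 calls in young adult muscle (2 without either multiple-tissue library), 3 to 22 in day 12, 3 to 23 in dauer and 7 to 14 in larval muscle, 22 to 25 in young adult and 12 to 18 in day 12 neurons, 0 to 6 for age in muscle, 0 for age in neurons, 0 to 1 in dauer against young adult muscle, 9 to 15 in muscle against neurons and 0 to 7 in the interaction, while the calls over all genes were in the same order 2% to 2.34%, 2.74% to 10.2%, 2.63% to 14.3%, 2.96% to 4.38%, at least 8.55%, 5.59% to 6.4%, 0% to 2.63%, 0% to 0.0112%, 0.0111% to 1.62%, 5.58% to 8.43% and 0% to 2.34%. Without day 12 muscle replicate 2, anr-20 had a log2 difference of 0 in day 12 muscle against multiple tissues, with no reads left, and without replicate 1 it was 9.945 (adjusted p up to 1 over the 4 leave-outs). Of the other single values, 430 kept their direction and lost their call and 1125 kept both. The share of reads without F54D7.7 was 0.669% in L1, 0.727% in L2, 1.105% in dauer, 0.4816% in young adult and 1.53% in day 12 muscle and 0.38% in multiple tissues. Without the 6 genes now listed as coding, an alternative chosen after seeing the data, it was 0.59%, 0.634%, 0.88%, 0.324%, 1.04% and 0.219%, and 0.0912% with SL2. Counting genes with at least 50 reads gave 2.29% in day 12 muscle. The causes were not tested, except that a fit without 1 library has fewer samples. The planned search for a TTTCAG motif at acceptors was not run. Neuron libraries were the shallowest, so by depth alone a count of 0 allows a higher level there than in the other groups.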
